A study of Mus musculus with 12 samples.

Results

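Translation initiation factors were taken as the genes whose symbol starts with *Eif* and a digit from 1 to 6, without the eIF2 kinases (*Eif2ak*), the Y-linked *Eif2s3y* and names marked as pseudogenes. The rule gave 51 of the 32288 genes and transgenes counted. Of these, 48 passed the expression filter in both fits and were tested. *Eif4e1b*, an oocyte-type cap-binding protein, had no counts in any library. *Eif3j2*, a near copy of *Eif3j1*, averaged at most 0.636 CPM in any group. *Eif2c5*, an older symbol of the Argonaute type that meets the rule by its name only, averaged at most 0.253 CPM.

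Translation starts when eIF2, bound to GTP, carries the initiator tRNA to the small ribosomal subunit together with eIF1, eIF1A, eIF3 and eIF5, and when the eIF4F complex brings the capped mRNA to it. eIF4F is made of the cap-binding protein eIF4E, the scaffold eIF4G and the RNA helicase eIF4A, and the eIF4E-binding proteins (4E-BPs), which mTORC1 switches off by phosphorylation, keep eIF4E from eIF4G. eIF2B reloads eIF2 with GTP, and stress kinases block it by phosphorylating the alpha subunit of eIF2. Osteoblasts, which secrete the collagen of bone matrix, depend on this machinery, and c-MYC is known as an activator of genes for protein synthesis.

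mGFP+ cells of the long bone metaphysis were profiled by bulk RNA-seq in 4 groups. Juvenile and adult *Osx*+ osteoblasts came from *Osx-CreERT2*; *mTmG* mice of 3 and 8 weeks, with 4 libraries each and the femurs and tibias of 2 male mice pooled per library. *c-Myc*-induced osteoblasts (2 libraries) additionally carried *LSL-tTA* and *Col1a1*::*TetO–c-Myc*, and *c-Myc* + *R172H* osteoblasts (2 libraries) carried *Trp53-LSL-R172H* as well. All mice received tamoxifen, so that Cre recombination in *Osx*-expressing cells switched on mGFP and, where present, tTA and mutant p53. tTA then drives *c-Myc* from a *TetO* transgene at the *Col1a1* locus. The titles of the induced libraries say 3 weeks and their dissection protocol says 5 weeks. Induced mice were of both sexes by the labels and were taken 7 days after tamoxifen, and the bone was cut about 5 mm below the growth plate, where juvenile and adult bones were cut at about 2 mm. The paper states that mice with the tTA-driven transgene, or pregnant females, drank doxycycline or tetracycline, which ended before analysis. Induction, this antibiotic, age, tamoxifen schedule and dissection therefore cannot be told apart in any comparison of induced with juvenile libraries. Where all induced libraries are used, sex cannot be told apart from these either. Juvenile and adult cells were collected 2 days after tamoxifen. The labels do not say how many mice an induced library holds, and p-values measure only the spread between these libraries.

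Total counts per library were between 9066154 and 15684412. *Myc* was at 44.3, 52.2, 39.8 and 47.2 CPM in juvenile libraries, 624 and 658 CPM in *c-Myc* and 639 and 748 CPM in *c-Myc* + *R172H* libraries, as the labels have it. The osteoblast markers *Sp7*, *Runx2*, *Alpl* and *Col1a1* were present in every group, but all 12 osteoblast and all 12 chondrocyte markers passed the test as lower in both induced groups than in juvenile libraries. Summed osteoblast markers were at 572800 to 841500 CPM in juvenile, 344200 to 620000 CPM in adult, 100500 to 133000 CPM in *c-Myc* and 56970 to 58920 CPM in *c-Myc* + *R172H* libraries. Summed chondrocyte markers were at 8837 to 26450, 34660 to 126700, 349 to 559.5 and 166 to 171 CPM in the same order. Of the 6 endothelial, 6 erythroid and 6 muscle markers none passed the expression filter, and the 10 hematopoietic markers summed to at most 12.9 CPM in any library, with *Ms4a1*, *Cd3e* and *S100a8* at 0 in all. The osteoclast markers *Ocstamp*, *Dcstamp* and *Calcr* had no counts in any library, and the summed list of 6 went from 203 to 332 CPM in juvenile to 84.0 to 104 CPM in *c-Myc* libraries. Of 7 marrow stroma markers, 5 were called lower and 1 higher in each induced group. Replicate 2 of both induced groups expressed *Xist* (234 and 212 CPM) and had no *Eif2s3y* counts, whereas *Xist* was at most 1.24 CPM in the other 10 libraries. The part of these differences in the results below was not tested. In bulk libraries, a lower share of one cell type and less RNA per cell cannot be told apart.

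Levels are given as CPM, counts relative to a library size scaled by TMM, a factor that sets most genes equal between libraries. Differences are log2 fold changes from edgeR's quasi-likelihood F test with SE, and adjusted p-values are over all genes of a fit, with a threshold of 0.05. *Col1a1*, *Col1a2* and *Gm26917* took 57.1% to 65.3% of the counts in juvenile, 42.4% to 56.1% in adult and 35.2% to 46.1% in induced libraries. Dividing by library totals instead of TMM moved the median log2 fold change of all genes from 0.04 to 0.87 in *c-Myc* against juvenile libraries and from 0.08 to 1.11 in *c-Myc* + *R172H* against juvenile libraries. The increases below are relative to the TMM scale.

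The first question was how the initiation factors differed once *c-Myc* was induced. In *c-Myc* against juvenile libraries, 37 of the 48 members tested rose and 1 fell, with a median log2 fold change of 0.80. Over all 12588 genes tested, 28.4% were called higher and 25% were called lower, and the median was 0.04. A log2 fold change of at least 1 was reached by 18 of the 48 members among those called higher, against 18.4% of all genes. The counts of the 51 members summed to 3386 to 3685 CPM in juvenile libraries, 3139 to 3363 CPM in adult, 5917 to 6214 CPM in *c-Myc* and 5794 to 6073 CPM in *c-Myc* + *R172H* libraries. The induced sums lay above all juvenile and adult ones. In *c-Myc* + *R172H* against the same juvenile libraries, 38 members rose and none fell by edgeR, with a median of 0.82, where 30.4% of all genes were called higher and 26.3% were called lower. At an unadjusted p below 0.05 *Eif4e3* was lower there, and DESeq2 called it lower. In this comparison 18 members were called higher with a log2 fold change of at least 1, against 19.6% of all genes. Without the *Xist*-expressing replicate 2 of the induced groups, 1 library stood for each group, and the member medians were 0.83 and 0.80. Both comparisons share the juvenile libraries. Of the 37 and 38 members, 36 were called in both. *Eif2b4* was called only in the first, and *Eif3h* and *Eif4e2* only in the second, at the settings reported here. *Eif3h* was also called in the first under 6 alternatives, among them no filter on low counts (0.43), all 12 libraries in 1 fit (0.40) and leaving out juvenile replicate 1 (0.46). None of these 3 passed the test between the induced groups.

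**Figure D1:**
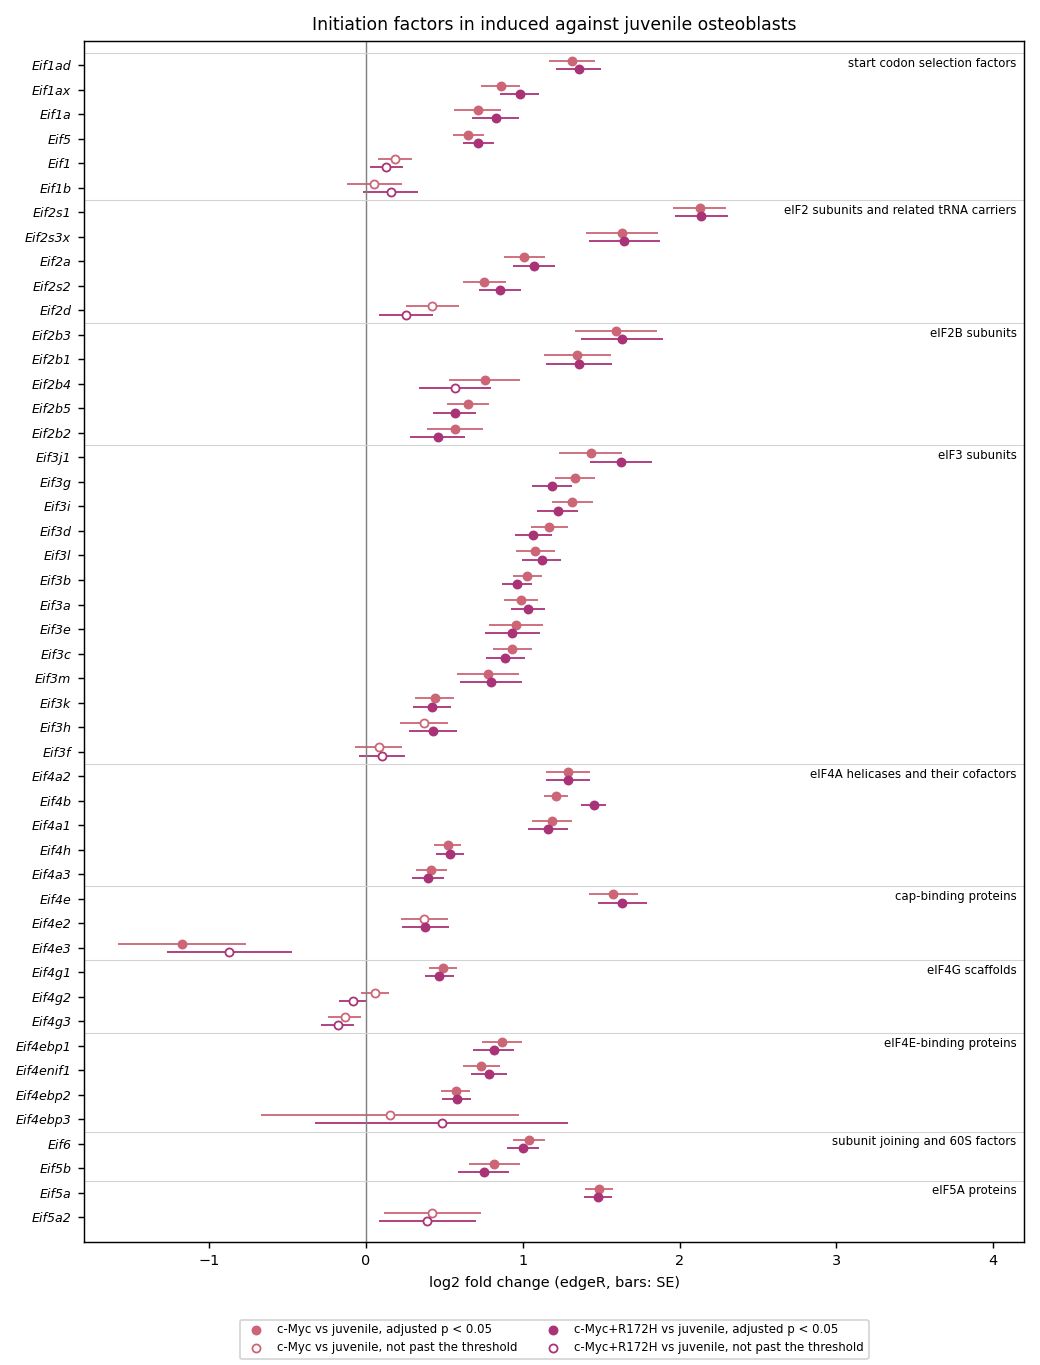
Log2 fold change (x axis) with SE of the 48 members tested, by role, for *c-Myc* and *c-Myc* + *R172H* against the same 4 juvenile libraries. Filled points passed an adjusted p of 0.05. *Eif2s1* lies farthest to the right at 2.13 and 2.14, and *Eif4e3* has the lowest values, -1.17 and -0.87.

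With all induced libraries in the fit, the 2 largest increases in *c-Myc* libraries were in subunits of eIF2. The second, *Eif2s3x* at 1.63, was close to *Eif2b3* at 1.60 and *Eif4e* at 1.58. Without the *Xist*-expressing libraries *Eif2s3x* was at 1.34, and the ranks were not compared there. *Eif2s1*, which encodes the regulatory alpha subunit, is on chromosome 12 (78861819 to 78887010, plus strand, GRCm38). *Eif2s1* was at 13.1, 15.1, 9.88 and 9.56 CPM in juvenile, 19.9, 14.6, 16.6 and 17.3 CPM in adult, 54.6 and 52.1 CPM in *c-Myc* and 56.1 and 49.1 CPM in *c-Myc* + *R172H* libraries. The lowest induced library was over 3 times as high as the highest juvenile library, and adult and juvenile libraries overlapped. The log2 fold change was 2.13 ± 0.17 (SE) with adjusted p = 5.79e-07 in *c-Myc* and 2.14 ± 0.17 (SE) with adjusted p = 4.37e-07 in *c-Myc* + *R172H* libraries, the largest of all members in both. *Eif2s3x*, the X-linked gamma subunit, holds the GTP. *Eif2s3x* was at 7.58, 12.5, 12.9 and 10.6 CPM in juvenile, 12.1, 11.2, 8.54 and 7.46 CPM in adult, 27.9 and 40.2 CPM in *c-Myc* and 28.2 and 39.2 CPM in *c-Myc* + *R172H* libraries. Both *Xist*-expressing libraries (replicate 2) were higher than both other induced libraries, and all 4 were above the juvenile range. The log2 fold change was 1.63 ± 0.23 (SE) with adjusted p = 6.15e-05, and without the *Xist*-expressing libraries it was 1.34 ± 0.32 (SE), adjusted p = 0.00398, with 1 library standing for the group and assumed to vary like the others. *Eif2s2*, the beta subunit, rose from 26.6 ± 3.62 (SD, n = 4) to 45.5 ± 1.65 CPM (SD, n = 2), a log2 fold change of 0.76 ± 0.14. Of the other tRNA carriers, *Eif2a* rose by 1.01 ± 0.13 on the log2 scale. *Eif2d*, a non-canonical carrier, had the smallest change of the group. *Eif2d* was at 14.7, 13.4, 12.5 and 13.5 CPM in juvenile, 11.4, 11.2, 14.6 and 11.3 CPM in adult, 19.00 and 17.98 CPM in *c-Myc* and 15.2 and 17.03 CPM in *c-Myc* + *R172H* libraries. Its induced libraries lay above the juvenile ones, but its log2 fold change of 0.42 ± 0.17 (SE) with adjusted p = 0.0516 missed the threshold. It was called higher under 6 alternatives, among them DESeq2 (0.41), a minimum of 10 counts (0.43) and leaving out juvenile replicate 1 (0.47), and by library totals it was 1.25. In *c-Myc* + *R172H* it was 0.25 ± 0.17 (SE) with adjusted p = 0.223.

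All 5 subunits of eIF2B, the exchange factor that recharges eIF2, rose in *c-Myc* libraries, and 4 rose in *c-Myc* + *R172H* libraries. *Eif2b3* was at 7.398, 5.78, 5.15 and 3.23 CPM in juvenile, 5.16, 3.61, 3.75 and 5.12 CPM in adult, 16.8 and 16.8 CPM in *c-Myc* and 18.4 and 15.3 CPM in *c-Myc* + *R172H* libraries. *Eif2b3* encodes a partner of the catalytic subunit and rose furthest, by 1.60 ± 0.26 (SE) with adjusted p = 2.38e-04. It was also the lowest member of the group per kb of exon. *Eif2b2* was at 15.4, 14.96, 19.3 and 22.4 CPM in juvenile, 13.1, 16.6, 10.1 and 16.2 CPM in adult, 29.00 and 25.01 CPM in *c-Myc* and 24.99 and 23.98 CPM in *c-Myc* + *R172H* libraries. *Eif2b2*, of the regulatory core, rose least, by 0.57 ± 0.18 (SE) with adjusted p = 0.0165, and lost the call without either *c-Myc* replicate (0.46 and 0.67). *Eif2b5* was at 30.6, 29.3, 27.5 and 37.5 CPM in juvenile, 23.8, 23.5, 27.8 and 27.9 CPM in adult, 53.1 and 46.5 CPM in *c-Myc* and 45.1 and 46.9 CPM in *c-Myc* + *R172H* libraries. *Eif2b5*, the catalytic subunit, rose by 0.65 ± 0.14 (SE) with adjusted p = 0.00144. Its call in *c-Myc* + *R172H* (0.57 ± 0.14) was lost without replicate 2 of that group (0.50). *Eif2b1* and *Eif2b4* had log2 fold changes of 1.35 ± 0.21 and 0.76 ± 0.23 in *c-Myc* libraries.

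Of 13 eIF3 subunits tested, 11 rose in *c-Myc* and 12 in *c-Myc* + *R172H* libraries, with medians of 0.99 and 0.96 on the log2 scale. eIF3 is the largest initiation complex and bridges the small subunit and eIF4G. *Eif3a* and *Eif3b* encode its scaffold subunits. *Eif3a* was at 109, 108, 104 and 83.6 CPM in juvenile, 96.8, 99.2, 98.3 and 103 CPM in adult, 197 and 209.7 CPM in *c-Myc* and 214 and 198 CPM in *c-Myc* + *R172H* libraries. *Eif3b* was at 165, 168, 139.6 and 167 CPM in juvenile, 152, 142, 150.5 and 154 CPM in adult, 338 and 325 CPM in *c-Myc* and 320.3 and 300.5 CPM in *c-Myc* + *R172H* libraries. Neither gene's induced libraries overlapped the juvenile or adult ones, and the log2 fold changes in *c-Myc* were 0.99 ± 0.11 and 1.03 ± 0.09. *Eif3j1* was at 4.75, 5.68, 5.29 and 4.72 CPM in juvenile, 5.57, 7.11, 6.08 and 8.103 CPM in adult, 13.9 and 14.1 CPM in *c-Myc* and 15.5 and 15.98 CPM in *c-Myc* + *R172H* libraries. *Eif3j1*, a loosely bound subunit, had the largest change of the complex at 1.43 ± 0.20 (SE) with adjusted p = 6.39e-05. Its exons overlap those of *Spg11* on the other strand over 19% of their length, and reads of *Eif3j2* could be split between the copies, so its level is uncertain. *Eif3f* was at 118, 111, 91.1 and 77.3 CPM in juvenile, 78.1, 74.4, 72.6 and 71.3 CPM in adult, 108 and 106 CPM in *c-Myc* and 105 and 108 CPM in *c-Myc* + *R172H* libraries. *Eif3f*, a subunit of the MPN type, had the smallest change at 0.08 ± 0.15 (SE) with adjusted p = 0.669, and its induced libraries lay within the juvenile range, although by library totals it was called higher at 0.90. *Eif3h* was at 55.4, 53.6, 42.6 and 37.3 CPM in juvenile, 40.7, 33.98, 37.4 and 34.3 CPM in adult, 66.2 and 58.3 CPM in *c-Myc* and 65.1 and 61.8 CPM in *c-Myc* + *R172H* libraries. *Eif3h*, the MPN-type partner of *Eif3f*, had a log2 fold change of 0.37 ± 0.15 (SE) with adjusted p = 0.0589 in *c-Myc* and 0.43 ± 0.15 (SE) with adjusted p = 0.0306 in *c-Myc* + *R172H* libraries. *Eif3g* was at 41.9, 56.6, 52.2 and 41.6 CPM in juvenile, 35.6, 38.2, 42.4 and 52.8 CPM in adult, 123 and 123 CPM in *c-Myc* and 116 and 102 CPM in *c-Myc* + *R172H* libraries. *Eif3g*, an RNA-binding subunit, rose by 1.33 ± 0.13. The other 7 subunits had log2 fold changes from 0.44 (*Eif3k*) to 1.32 (*Eif3i*), all called higher.

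Per kb of exon, a scale on which genes can be compared, the eIF3 subunits were far from equal. *Eif3b* was highest in juvenile libraries at 47.8 ± 4.03 CPM per kb (SD, n = 4), followed by *Eif3f* at 34.4 ± 6.45 and *Eif3c* at 34.1 ± 5.17, which did not differ beyond their spread. *Eif3j1* was lowest at 0.876 ± 0.0788. In *c-Myc* libraries *Eif3g*, at 61.99 ± 0.257 CPM per kb (SD, n = 2), had passed *Eif3f*, at 37.01 ± 0.296. *Eif3a*, *Eif3d*, *Eif3m* and *Eif3i* followed each other in juvenile libraries at 11.6 ± 1.35, 10.9 ± 1.27, 10.1 ± 2.87 and 9.64 ± 1.44 CPM per kb and were not separated by their spread. Lengths are those of all annotated exons of a gene, which lowers the value of genes with long minor transcripts.

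**Figure D2:**
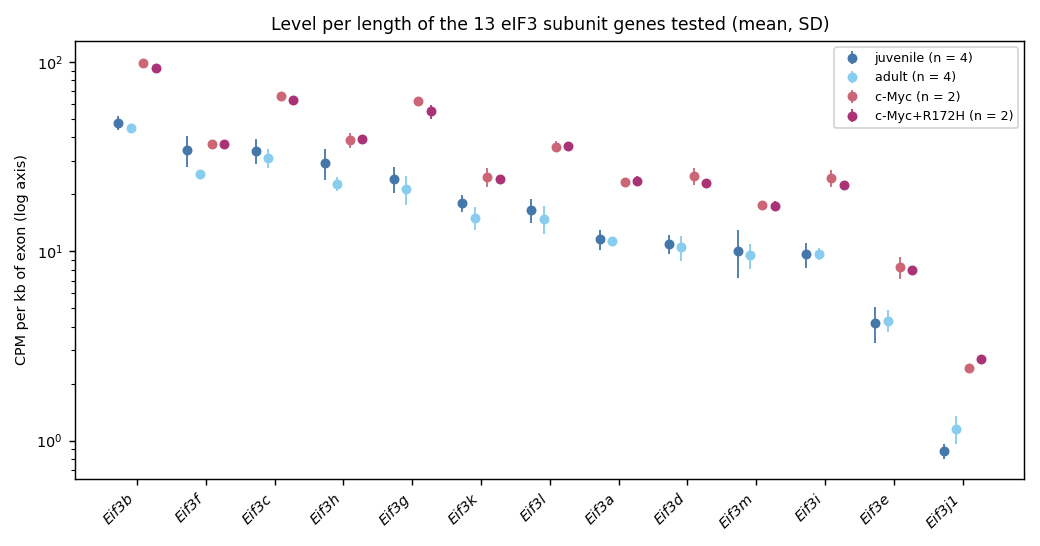
Mean CPM per kb of exon (y axis, log scale; bars are the SD) of the 13 eIF3 subunit genes tested, ordered by their juvenile level, in 4 groups. Induced means lie above juvenile means for all 13 subunits, and those of *Eif3f* lie within its juvenile spread.

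Among the cap-binding proteins the members went in different directions. *Eif4e* binds the cap and is on chromosome 3. *Eif4e* was at 17.8, 15.2, 16.4 and 23.1 CPM in juvenile, 23.4, 19.3, 22.4 and 25.7 CPM in adult, 52.3 and 57.4 CPM in *c-Myc* and 60.3 and 51.7 CPM in *c-Myc* + *R172H* libraries. All induced libraries were over 2 times as high as the highest juvenile library, and the log2 fold change was 1.58 ± 0.16 (SE) with adjusted p = 3.36e-06 in *c-Myc* and 1.64 ± 0.15 (SE) with adjusted p = 2.07e-06 in *c-Myc* + *R172H* libraries. *Eif4e3* was at 4.29, 3.405, 6.68 and 4.35 CPM in juvenile, 5.37, 1.69, 4.01 and 4.16 CPM in adult, 2.19 and 1.99 CPM in *c-Myc* and 2.56 and 2.48 CPM in *c-Myc* + *R172H* libraries. *Eif4e3*, a cap-binding relative at a low level, was the only member called lower in *c-Myc* libraries, at -1.17 ± 0.41 (SE) with adjusted p = 0.0278. The call was not met in *c-Myc* + *R172H* (-0.87 ± 0.40 (SE) with adjusted p = 0.0793), nor in *c-Myc* without either *c-Myc* replicate (-1.24 and -1.11). By library totals the values were -0.33 in *c-Myc* and 0.18 in *c-Myc* + *R172H* libraries, so its sign in the latter differed between scalings. It shares 14.8% of its exon bases with another gene on the same strand. *Eif4e2*, a cap-binding protein tied to translational repression, went from 35.9 ± 6.23 (SD, n = 4) to 47.5 ± 0.333 CPM (SD, n = 2), a log2 fold change of 0.37 ± 0.15 (SE) with adjusted p = 0.0533.

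Of the 3 eIF4G scaffolds, *Eif4g1* alone passed the test on the TMM scale. *Eif4g1* was at 478, 481, 577 and 489 CPM in juvenile, 381, 423, 404 and 429.5 CPM in adult, 713 and 729 CPM in *c-Myc* and 729 and 665 CPM in *c-Myc* + *R172H* libraries. It was the member with the highest level per kb in juvenile libraries after *Eif5a*, at 69.3 ± 6.53 against 79.1 ± 4.31 CPM per kb, and rose by 0.49 ± 0.09 (SE) with adjusted p = 5.45e-04. *Eif4g2* was at 571, 614, 534 and 527 CPM in juvenile, 480.5, 465, 555 and 469 CPM in adult, 609.8 and 577 CPM in *c-Myc* and 552 and 503 CPM in *c-Myc* + *R172H* libraries. *Eif4g2*, also known as DAP5, lacks the eIF4E-binding part and had a log2 fold change of 0.06 ± 0.09 (SE) with adjusted p = 0.616. By library totals it was called higher at 0.89, with the median of all genes at 0.87. *Eif4g3* was at 101, 88.1, 88.2 and 96.2 CPM in juvenile, 66.7, 82.6, 80.99 and 106 CPM in adult, 81.2 and 91.5 CPM in *c-Myc* and 80.01 and 83.9 CPM in *c-Myc* + *R172H* libraries. *Eif4g3*, the second full-length scaffold, had -0.14 ± 0.10 (SE) with adjusted p = 0.295, which became 0.69 by library totals.

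All 5 genes of the helicase group rose in both induced groups. *Eif4a1* and *Eif4a2* encode near-identical helicases. *Eif4a1* was at 213, 166, 163 and 144 CPM in juvenile, 175, 158, 161 and 183 CPM in adult, 416 and 379 CPM in *c-Myc* and 389.6 and 375 CPM in *c-Myc* + *R172H* libraries. *Eif4a2* was at 27.8, 31.1, 38.9 and 27.4 CPM in juvenile, 37.7, 41.2, 31.6 and 61.7 CPM in adult, 75.6 and 79.00 CPM in *c-Myc* and 69.8 and 81.8 CPM in *c-Myc* + *R172H* libraries. The log2 fold changes were 1.19 ± 0.13 and 1.29 ± 0.14 in *c-Myc* libraries, and all induced libraries lay above the juvenile and adult ones for both. Their annotated exons hold snoRNA genes, and reads that match both paralogs could be lost from either. *Eif4b* was at 192, 212, 202 and 193 CPM in juvenile, 207, 181, 158 and 192 CPM in adult, 483 and 456 CPM in *c-Myc* and 555 and 530.4 CPM in *c-Myc* + *R172H* libraries. *Eif4b*, which stimulates the helicase, rose by 1.21 ± 0.08 (SE) with adjusted p = 1.02e-07. *Eif4h* was at 199, 181, 178 and 181 CPM in juvenile, 152, 153, 162 and 147 CPM in adult, 282 and 256 CPM in *c-Myc* and 268 and 265 CPM in *c-Myc* + *R172H* libraries. Its relative *Eif4h* rose by 0.52 ± 0.09 (SE) with adjusted p = 2.63e-04. *Eif4a3* was at 64.3, 67.1, 67.04 and 77.5 CPM in juvenile, 59.5, 55.8, 64.4 and 59.3 CPM in adult, 97.2 and 89.7 CPM in *c-Myc* and 90.3 and 90.2 CPM in *c-Myc* + *R172H* libraries. *Eif4a3*, a helicase of the exon junction complex with its role outside initiation, rose least at 0.42 ± 0.10 (SE) with adjusted p = 0.00381, and lost the call without *c-Myc* replicate 1 (0.36).

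Of the 4 genes for eIF4E-binding proteins, 3 rose in both induced groups. *Eif4ebp1* was at 21.2, 21.3, 19.6 and 21.99 CPM in juvenile, 21.3, 19.2, 22.6 and 10.2 CPM in adult, 42.1 and 35.8 CPM in *c-Myc* and 36.9 and 36.7 CPM in *c-Myc* + *R172H* libraries. *Eif4ebp2* was at 116, 109, 113 and 132 CPM in juvenile, 128, 119, 120.1 and 88.4 CPM in adult, 180.4 and 175 CPM in *c-Myc* and 179 and 171 CPM in *c-Myc* + *R172H* libraries. *Eif4ebp1* and *Eif4ebp2* had log2 fold changes of 0.87 ± 0.13 and 0.57 ± 0.09, and *Eif4enif1*, a transporter of eIF4E, had 0.74 ± 0.12. Juvenile and induced libraries overlapped for none of the 3, a share that was not counted over all genes. *Eif4ebp3* was at 1.005, 2.89, 0 and 3.73 CPM in juvenile, 1.92, 0.677, 1.16 and 0.3198 CPM in adult, 2.01 and 2.33 CPM in *c-Myc* and 2.701 and 2.63 CPM in *c-Myc* + *R172H* libraries. *Eif4ebp3* was near the floor of detection, with no counts in juvenile replicate 3, and its log2 fold change of 0.16 ± 0.82 could not be told from 0. Another annotated gene shares 67.3% of its exon bases on the same strand.

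**Figure D3:**
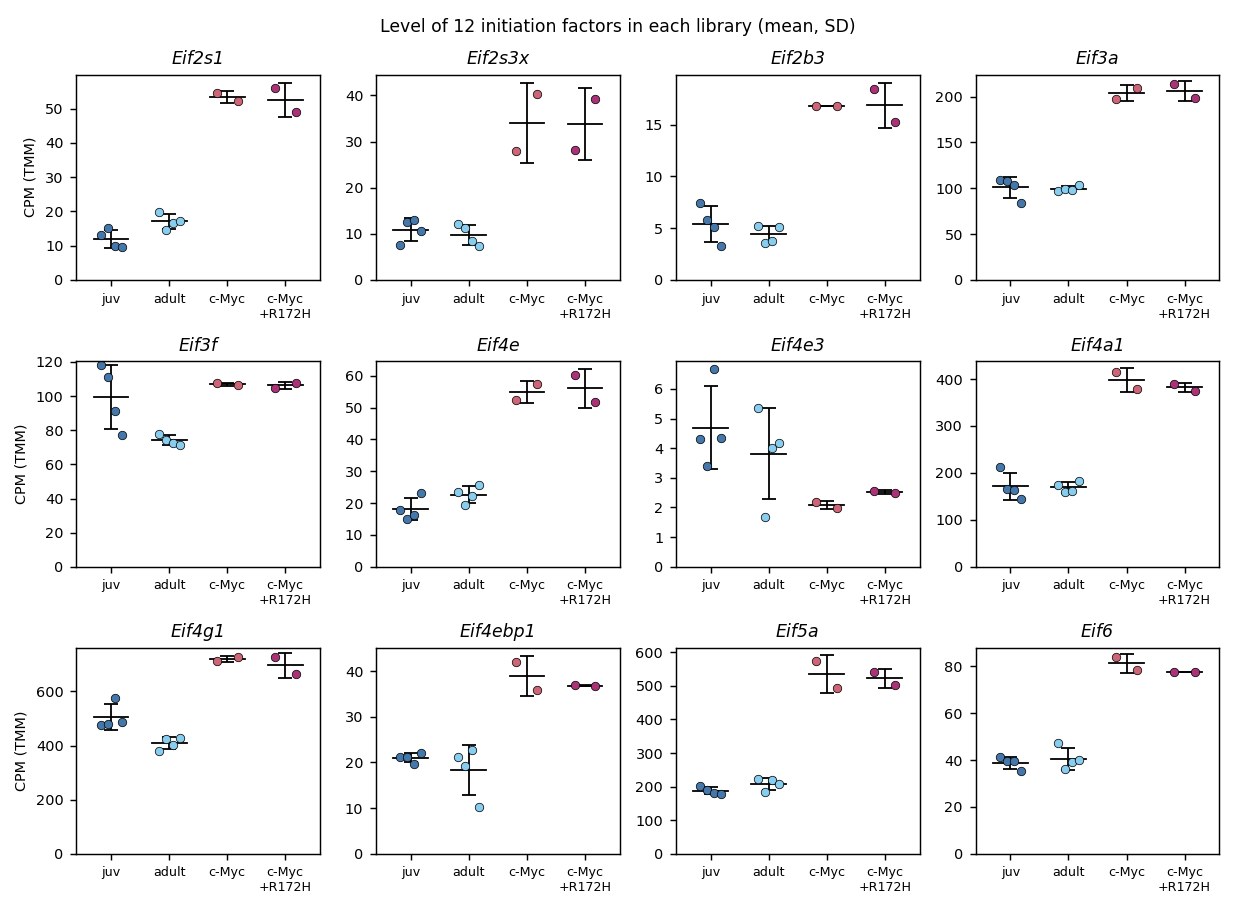
CPM (y axis, from 0) of 12 members in each of the 12 libraries, with the mean and SD of each group. The induced libraries stand clear above both control groups for all but *Eif3f*, which overlaps, and *Eif4e3*, where they are below all juvenile libraries.

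*Eif5a* encodes eIF5A, a factor that carries the modified lysine hypusine and helps the ribosome through difficult peptide bonds. *Eif5a* was at 201, 191, 181 and 179 CPM in juvenile, 223, 183, 219.6 and 206 CPM in adult, 575 and 495 CPM in *c-Myc* and 543 and 503 CPM in *c-Myc* + *R172H* libraries. It rose by 1.49 ± 0.09 (SE) with adjusted p = 6.21e-08 in *c-Myc* and 1.48 ± 0.09 (SE) with adjusted p = 4.22e-08 in *c-Myc* + *R172H* libraries, and had the highest level per kb of all members in every group. *Eif5a2* was at 7.03, 5.26, 6.95 and 3.48 CPM in juvenile, 6.58, 6.21, 5.95 and 5.33 CPM in adult, 6.805 and 8.73 CPM in *c-Myc* and 7.87 and 6.999 CPM in *c-Myc* + *R172H* libraries. Its paralog *Eif5a2* had a log2 fold change of 0.42 ± 0.31 (SE) with adjusted p = 0.268, and its induced libraries overlapped the juvenile ones. By library totals it was called higher in both induced groups, at 1.23 and 1.42, with the medians of all genes at 0.87 and 1.11. Both enzymes that make hypusine rose with *Eif5a*, *Dhps* by 1.56 ± 0.33 and *Dohh* by 1.63 ± 0.19 on the log2 scale.

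Of the factors of start codon selection 4 of 6 rose in *c-Myc* libraries, and of those of subunit joining 2 of 2. *Eif1ad* was at 12.2, 11.04, 13.2 and 12.8 CPM in juvenile, 12.3, 15.7, 11.8 and 15.99 CPM in adult, 31.3 and 30.7 CPM in *c-Myc* and 33.1 and 29.5 CPM in *c-Myc* + *R172H* libraries. *Eif1ad*, related to eIF1A, rose furthest among the former at 1.31 ± 0.14 (SE) with adjusted p = 8.70e-06, though 15.3% of its exon bases lie opposite those of *Banf1*, which went from 27.7 to 87.99 CPM. *Eif1ax* was at 36.8, 31.8, 42.98 and 34.9 CPM in juvenile, 54.6, 47.3, 40.2 and 36.2 CPM in adult, 69.8 and 64.8 CPM in *c-Myc* and 74.8 and 68.7 CPM in *c-Myc* + *R172H* libraries. *Eif1ax*, the X-linked eIF1A, rose by 0.86 ± 0.12, and by 0.90 ± 0.20 (SE) without the *Xist*-expressing libraries. *Eif1a* and *Eif5*, the GTPase activator of eIF2, had 0.71 ± 0.15 and 0.65 ± 0.10. *Eif1b* was at 17.4, 16.3, 23.4 and 18.8 CPM in juvenile, 19.4, 19.6, 19.02 and 22.7 CPM in adult, 18.7 and 21.1 CPM in *c-Myc* and 21.6 and 20.3 CPM in *c-Myc* + *R172H* libraries. *Eif1b* and *Eif1*, which guard against wrong start codons, did not pass the test, at 0.05 ± 0.17 and 0.19 ± 0.11, although by library totals *Eif1b* was called higher at 0.89. *Eif6* was at 41.2, 39.5, 39.6 and 35.2 CPM in juvenile, 47.2, 36.01, 39.3 and 39.9 CPM in adult, 84.1 and 78.5 CPM in *c-Myc* and 77.5 and 77.4 CPM in *c-Myc* + *R172H* libraries. *Eif6*, which keeps the large subunit from joining early, rose by 1.04 ± 0.10 (SE) with adjusted p = 3.70e-06. *Eif5b* was at 27.6, 26.00, 26.3 and 17.8 CPM in juvenile, 29.97, 20.6, 25.2 and 31.2 CPM in adult, 44.5 and 43.2 CPM in *c-Myc* and 41.9 and 40.01 CPM in *c-Myc* + *R172H* libraries. *Eif5b*, the GTPase that joins the subunits, rose by 0.82 ± 0.16 (SE) with adjusted p = 9.11e-04. Its exons lie opposite *Rev1* over 16.9% of their bases.

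Paralogs were compared within a library as the log2 ratio of their counts, which does not depend on scaling between libraries. With the 4 induced libraries of both genotypes set against the 4 juvenile ones, 7 of 10 ratios shifted past an adjusted p of 0.05 in the exact two-sided permutation test, each at p = 0.0286, the smallest that 4 against 4 can give, and adjusted p = 0.0408 over the 10 pairs. The ratios restate the unequal fold changes given above, and pairs that share *Eif4e* or *Eif4g1* are not independent. Other gene pairs were not tested. With 28.4% of all genes called higher and 25% lower in *c-Myc* against juvenile libraries, the 7 shifts are a description of these members only. *Eif4e* went from a mean of 0.503 times the counts of *Eif4e2* in juvenile libraries (0.4 to 0.75) to 1.11 to 1.24 times in induced libraries, a difference of 1.23 on the log2 scale. Against *Eif4e3* its ratio went from 3.94 (2.46 to 5.31) to between 20.8 and 28.9. *Eif5a* had 34.3 times the counts of *Eif5a2* in juvenile libraries (25.98 to 51.5) and 56.7 to 84.5 times in induced libraries. *Eif4g1* went from 0.9 times *Eif4g2* (0.783 to 1.08) to 1.17 to 1.32 times, and from 5.41 times *Eif4g3* (4.73 to 6.55) to 7.92 to 9.11 times. *Eif4b* went from 1.08 times *Eif4h* (0.964 to 1.17) to 1.71 to 2.08 times, and *Eif4ebp1* from 0.179 times *Eif4ebp2* (0.166 to 0.194) to 0.205 to 0.233 times. The ratio of *Eif4a1* to *Eif4a2* was 5.48 in juvenile libraries (4.2 to 7.67) and 4.59 to 5.58 in induced libraries, a log2 difference of -0.10 with p = 0.714 by the exact permutation test. The ratios *Eif1*/*Eif1b* and *Eif1a*/*Eif1ax* differed by 0.05 and -0.13 on the log2 scale and did not pass either.

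**Figure D4:**
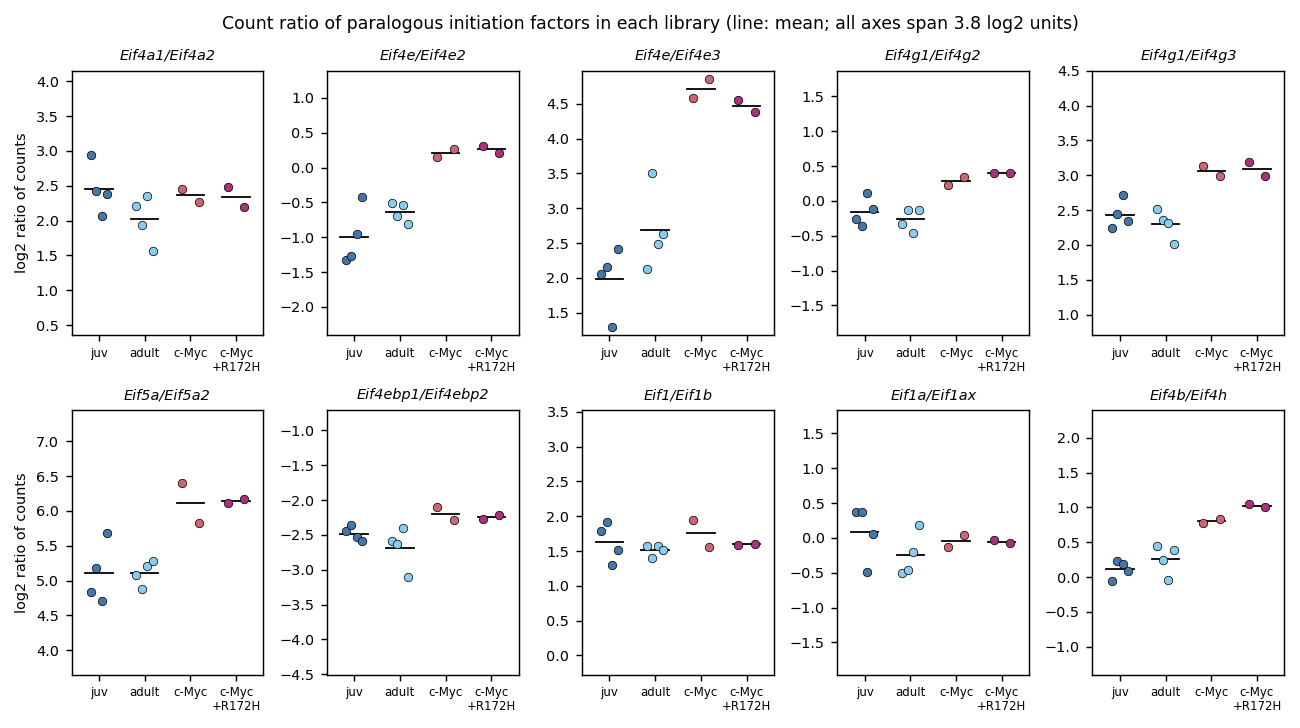
Log2 ratio of counts (y axes, all of the same span) of 10 paralog pairs in each of the 12 libraries, with the mean of each group as a line. Induced libraries lie above all juvenile ones for *Eif4e*/*Eif4e2*, *Eif4e*/*Eif4e3*, *Eif4g1*/*Eif4g2*, *Eif4g1*/*Eif4g3*, *Eif5a*/*Eif5a2*, *Eif4ebp1*/*Eif4ebp2* and *Eif4b*/*Eif4h*.

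The dimer of c-MYC and MAX binds the E-box CACGTG, a palindrome that reads the same on both strands. These letters were searched in RefSeq promoter windows (GRCm38.p6) from 250 bases before to 50 bases after each gene start. Windows were found for 39 of the 51 members by symbol, and 10 of these (25.6%) held CACGTG, against 8.09% of 27025 genes of the table and 11.99% of the 9808 among the genes tested. The stretches below lie before the start, on the strand of the gene, with the E-box in capitals and up to 30 bases on each side. They show that the same letters occur in members of either kind. The first 3 belong to members that rose and the last 2 to members that did not pass the test on the TMM scale.
*Eif4e* (chr3:138527174-138527239, plus strand, E-box beginning 64 bases before the start): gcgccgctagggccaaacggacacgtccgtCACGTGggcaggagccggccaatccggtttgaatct
*Eif5a* (chr11:69921425-69921490, minus strand, 74 bases before): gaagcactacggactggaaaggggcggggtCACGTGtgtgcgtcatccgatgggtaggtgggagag
*Eif4g1* (chr16:20672643-20672708, plus strand, 54 bases before): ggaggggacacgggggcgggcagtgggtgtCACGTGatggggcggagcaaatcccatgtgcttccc
*Eif3f* (chr7:108934317-108934382, plus strand, 68 bases before): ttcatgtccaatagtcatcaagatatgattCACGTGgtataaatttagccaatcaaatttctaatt
*Eif1b* (chr9:120492552-120492605, plus strand, 24 bases before): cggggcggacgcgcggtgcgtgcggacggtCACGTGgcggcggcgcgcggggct

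Of the 10 members with CACGTG, 7 were called higher in *c-Myc* libraries, with a median log2 fold change of 0.50. Of the 28 tested members with a window but without it, 24 were called higher, with a median of 0.84. *Eif2s1*, with the largest change, was among the latter, and *Eif5a2* held 2 E-boxes, 117 and 142 bases before its start, and was not called on the TMM scale. A match in the letters is not a measured binding site.

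The next question was whether mutant p53 changed the initiation factors further. None of the 48 members passed the test between *c-Myc* + *R172H* and *c-Myc* libraries by edgeR or by DESeq2, where 0.00794% of 12588 genes were called higher and 0.461% were called lower. At an unadjusted p below 0.05 there was 1 of 48 members (2.08%), *Eif4b*, against 4.68% of all genes. It was at 483 and 456 CPM in *c-Myc* and 555 and 530.4 CPM in *c-Myc* + *R172H* libraries, which did not overlap, and its log2 fold change was 0.24 ± 0.09 (SE) with adjusted p = 0.742. In a fit of these 4 libraries alone *Eif4b* was called higher at 0.25. That fit called more genes in all, 189 of 12170 higher and 440 lower. The other members with the lowest p had log2 fold changes of -0.14 ± 0.10 (*Eif4g2*), -0.15 ± 0.15 (*Eif3g*), -0.17 ± 0.19 (*Eif2d*), 0.19 ± 0.22 (*Eif3j1*) and 0.12 ± 0.14 (*Eif1ax*), each with SE. The approximate 95% interval of the difference stayed within 1 log2 unit on either side of 0 for 46 of 48 members and within 0.5 for 36. It reached 1 for *Eif4e3* and *Eif4ebp3*, the members with the fewest counts, so for these 2 a 2-fold difference is not excluded. *Trp53* was at 65.3 and 55.97 CPM in *c-Myc* and 62.2 and 63.3 CPM in *c-Myc* + *R172H* libraries, and gene counts do not show which allele was read.

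The last question was whether juvenile and adult osteoblasts differed, and fold changes here are juvenile over adult. No member passed the test in either direction by edgeR or DESeq2, where 1.89% of 11345 genes were called higher and 3.23% were called lower in juvenile libraries. At an unadjusted p below 0.05 there were 6 of 48 members (12.5%), a smaller share than the 19.7% of all genes, so the values that follow are a description. *Eif3f* had the lowest p, with a log2 fold change of 0.42 ± 0.13 (SE) with adjusted p = 0.0772. Its 4 adult values of 78.1, 74.4, 72.6 and 71.3 CPM lay close together, and juvenile replicate 4, at 77.3 CPM, lay among them. Without that replicate the value was 0.52 ± 0.13 (SE), adjusted p = 0.0422. *Eif3h* was at 0.36 ± 0.15, *Eif4g1* at 0.30 ± 0.12 and *Eif4h* at 0.26 ± 0.11. For the last 2 the juvenile and adult libraries did not overlap, a share that was not counted over all genes. *Eif2s1* at -0.53 ± 0.21 and *Eif4a2* at -0.47 ± 0.19 had the lowest values. The adjusted p of these 5 was between 0.156 and 0.179. The 48 members had a median of 0.06 and 31 of them lay above 0, where the median of all genes was 0.00. The approximate 95% interval stayed within 1 log2 unit for 44 members and within 0.5 for 24. By library totals *Eif4a2* was called lower in juvenile libraries at -0.75, with the median of all genes at -0.24. No paralog ratio passed in the age comparison, the lowest being *Eif4e*/*Eif4e3* at p = 0.0857 and adjusted p = 0.476 in the exact permutation test over 10 pairs. Beside these values, 3 of 12 osteoblast markers were called higher and 2 of 12 chondrocyte markers lower in juvenile libraries. The chondrocyte markers had a median of -1.91, with 1 of the 12 above 0. Their sums did not overlap, at 8837 to 26450 CPM in juvenile and 34660 to 126700 CPM in adult libraries. The part of these marker differences was not tested.

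**Figure D5:**
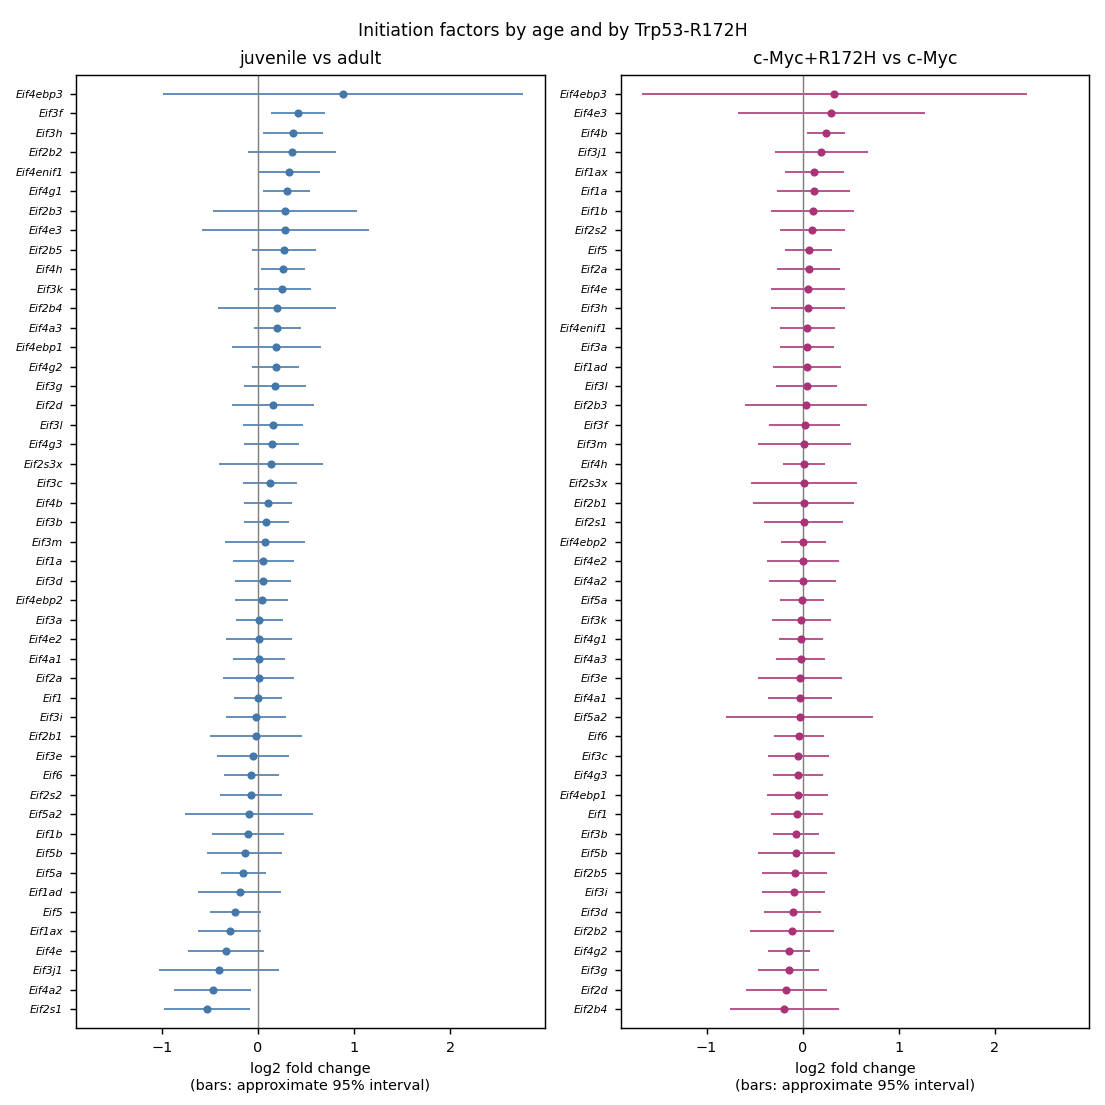
Log2 fold change (x axes) with the approximate 95% interval of the 48 members tested, ordered by value, for juvenile against adult (left) and *c-Myc* + *R172H* against *c-Myc* libraries (right). No member passed an adjusted p of 0.05 in either panel, and *Eif4ebp3*, with few counts, has the widest interval in both.

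Genes that act with the initiation factors were read from lists of other parts of translation. In *c-Myc* against juvenile libraries, where 28.4% of all genes were called higher and 25% lower, 11 of 20 initiation partners rose and 2 fell. *Bzw2*, an eIF5 mimic, rose by 2.34 ± 0.17 and *Pabpc4*, a poly(A)-binding protein, by 1.46 ± 0.10. The 2 that fell were *Pdcd4* (-0.68 ± 0.14), an inhibitor of eIF4A, and *Paip2* (-0.62 ± 0.14), an inhibitor of poly(A)-binding protein. *Pdcd4* went from 43.2 ± 5.42 CPM (SD, n = 4) to 27.3 ± 0.089 CPM (SD, n = 2).

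Of the 4 eIF2 kinases and 2 phosphatase subunits, *Eif2ak4* (GCN2) rose by 1.04 ± 0.18, *Ppp1r15b* rose by 0.27 ± 0.10, and *Eif2ak3* (PERK), the kinase of the endoplasmic reticulum, fell to a log2 fold change of -1.56 ± 0.14 (SE) with adjusted p = 1.96e-06. Targets of the integrated stress response, which follows eIF2 phosphorylation, went both ways, with 6 of 11 higher and 4 lower. *Phgdh* and *Asns*, of serine and asparagine synthesis, rose by 2.23 ± 0.12 and 1.89 ± 0.13, while *Vldlr* and *Nupr1* were at -2.09 ± 0.18 and -1.86 ± 0.16, both called lower. *Atf4*, the central transcription factor, was at -0.26 ± 0.09 and called lower. Of 10 genes from mTORC1 and its regulators to S6 kinase, 3 rose and none fell, a share near the 28.4% of all genes called higher, with *Rptor* at 0.64 ± 0.11 as the highest and *Rps6kb1* at -0.30 ± 0.16 (SE) with adjusted p = 0.1298 as the lowest.

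Of 8 genes tested with elongation factor symbols, among them *Eef2k*, the kinase of eEF2, 4 rose. The largest changes were those of *Eef1e1*, listed by its symbol only, at 2.28 ± 0.23 and *Eef1d* at 1.16 ± 0.10. The abundant *Eef1a1* and *Eef2* did not pass the test, at 0.00 ± 0.08 and 0.09 ± 0.09. Of 7 termination and recycling factors, 6 rose, with *Etf1* (eRF1) at 1.44 ± 0.10, and *Pelo*, which frees stalled ribosomes, was called lower at -0.58 ± 0.18. Of 9 mitochondrial translation factors, 6 rose and none fell, with *Tufm*, the mitochondrial elongation factor, at 2.63 ± 0.15. In *c-Myc* + *R172H* against juvenile libraries, 30.4% of all genes were called higher and 26.3% lower. There, 12 of 20 initiation partners were called higher and 2 lower. Of the 8 genes with elongation factor symbols, 4 were higher and 0 lower. The counts were 6 and 1 of 7 termination factors, 6 and 0 of 9 mitochondrial factors and 3 and 0 of 10 mTORC1 genes. They were 1 and 1 of the 6 eIF2 kinases and phosphatase subunits, and 2 and 0 of 2 hypusine enzymes. Of 11 stress response targets, 6 were higher and 5 lower. Between juvenile and adult libraries, only 2 genes of these lists passed, both close to the threshold in edgeR's test. *Pdcd4*, 1 of 20 initiation partners, was called lower in juvenile libraries at -0.52 with adjusted p = 0.0486. *Eef2k*, 1 of 8 genes with elongation factor symbols, was called higher at 0.62 with adjusted p = 0.04895. Over all genes, 1.89% were called higher and 3.23% lower. Between the 2 induced groups, no gene of these lists was called in either direction.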

How the data were processed

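RNA from sorted mGFP+ cells was sequenced as 86-bp single-end reads from a directional library kit. Per the submitters' processing notes, reads were handled with bcl2fastq 2.20 and cutadapt 4.6, aligned to mm10 (GRCm38) with STAR 2.7.11a and counted per gene with HTSeq 2.0.5. The authors deposited raw counts per gene. The strand setting of the counting is not given in the sources used here, so reads of overlapping opposite-strand genes may be mixed.

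Counts were tested in R 4.3.3 with edgeR 4.0.16 (TMM, filterByExpr, robust quasi-likelihood F test), with Benjamini-Hochberg adjustment over all genes tested and a threshold of 0.05. Juvenile and adult libraries formed one fit, and juvenile libraries with both induced groups the other. SE was approximated from each fold change and the root of its F statistic. Scripts were tested on simulated data. Count ratios of paralogs were tested by exact permutation. Exon lengths and coordinates came from a GENCODE annotation of GRCm38, whose release differs from that of the counting. Alternatives were DESeq2 1.42.0, other filters and scalings, other sample sets, a replicate block and leaving out each library. A small-count adjustment and leaving out the *Xist*-expressing libraries were added after seeing the data.

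The members, roles and lists were chosen with earlier results of these data known. Values in every library are given for 14 listed members, the members with the highest and lowest change of each role in *c-Myc* against juvenile libraries, each member called lower there, and the 6 with the lowest p in the age and R172H comparisons.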

Additional observations from a re-analysis of the deposited data

Results flagged for a closer look

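In 64 groups of 4 control libraries examined for the members described in full, 6 had 1 library far from the other 3 by Dixon's criterion. Chance alone gives about 1 in 20 groups. In juvenile replicate 3, *Eif3b* was at 139.6 CPM, below the 165 to 168 CPM of the other juvenile libraries, and *Eif4g1* was at 577 CPM, above 478 to 489 CPM. *Eif4h* was at 199 CPM in juvenile replicate 1, above 178 to 181 CPM. *Eif5b* was at 17.8 CPM in juvenile replicate 4, below 26.0 to 27.6 CPM. *Eif1b* was at 22.7 CPM in adult replicate 4, above 19.0 to 19.6 CPM. *Eif2d* was at 14.6 CPM in adult replicate 3, above 11.2 to 11.4 CPM.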

How the results depend on the processing

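Dividing by library totals had the largest effect on the medians of the members, which became -0.18 for age, 1.63 for *c-Myc* and 1.86 for *c-Myc* + *R172H* against juvenile libraries and 0.21 between the induced groups. It called 46 members higher in *c-Myc*, reversed *Eif4g3* to 0.69 and called 1 member lower by age. Under the same scaling 6803 of 12588 genes were called higher in *c-Myc* and 792 of 11345 genes lower by age. The 1 member called lower in *c-Myc*, *Eif4e3*, gave 0 such calls by library totals, with all 12 libraries in 1 fit, without the low-count filter and without the *Xist*-expressing libraries. In *c-Myc* + *R172H* against juvenile libraries, 1 member was called lower with a minimum of 10 counts, with DESeq2, with the small-count adjustment and with the replicate block. By age, 1 member was called higher with all 12 libraries in 1 fit and without the filter, where 461 of 13005 and 399 of 16862 genes were. With only the 2 induced groups, 1 member was called higher between them, where 189 of 12170 genes were called higher. The cause was not tested. Apart from leaving out single libraries, given below, the other alternatives changed none of these counts by more than 1.5 times.

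Leaving out 1 library gave 33 to 40 members higher and 0 to 1 lower in *c-Myc* (median 0.79 to 0.85), 32 to 38 higher and 0 to 1 lower in *c-Myc* + *R172H* (0.76 to 0.83), 0 to 1 higher and 0 lower by age (0.04 to 0.12), and 0 in both directions between the induced groups (-0.06 to -0.00070). With the replicate block, 37 members were higher and 1 lower in *c-Myc*, and 37 higher and 1 lower in *c-Myc* + *R172H*. Same-numbered libraries did not deviate together by age (r from -0.052 to 0.037). Between the induced groups r was 0.14 for both pairs, which with 2 libraries a group are the same value by construction. The numbers were not taken to pair the libraries, although replicate 2 was the *Xist*-expressing library in both induced groups. Between these groups the replicate block called 30 of 12588 genes higher and 296 lower, against 1 and 58 without it, and no member. With 2 libraries in each induced group and few counts for *Eif4e3* and *Eif4ebp3*, small differences could not be detected.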
